A study of Mus musculus with 16 samples.

Results

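The genes described here are the developmental transcription factors of the Sox, Fox, Tbx, Gata, Hes and Zic families and of the basic helix-loop-helix (bHLH) groups Neurod, Neurog, Ascl, Atoh, Olig, Hand and Twist. They were chosen by gene symbol, as every row with such a family name followed by a number (for Fox, a letter from a to s and a number), leaving out Tbx21, Gata3, Foxp3 and Foxo1. The rule found 111 genes, of 23420 in the RNA tables and of 22269 gene intervals in the ChIP tables. By family they were 42 Fox, 19 Sox, 18 neural bHLH, 12 Tbx, 6 Hes, 5 Gata, 5 Zic and 4 mesodermal bHLH (Hand and Twist) genes.

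The study asked which genes are tied to Ezh2 and to trimethylation of histone H3 at lysine 27 (H3K27me3) in mouse CD4 T cells. Naive CD4 T cells were flow sorted and activated with anti-CD3 at 5 ug/ml and anti-CD28 at 1 ug/ml, either with IL-2 at 50 U as neutrally activated Th0 cells, or with IL-2 at 200 U/ml and TGF-b1 at 5 ng/ml as induced regulatory T cells (iTreg). RNA was sequenced from 3 libraries each of Th0 Ezh2KO, Th0 Ezh2fl/fl, iTreg Ezh2KO and iTreg Ezh2fl/fl cells, and H3K27me3 was measured by ChIP-seq in 2 Ezh2KO and 2 Ezh2fl/fl Th0 libraries. The sample titles give day 5 for iTreg RNA and day 4 for Th0 RNA, whereas the RNA protocol gives harvest at day 4 for both. Ezh2KO mice were Ezh2 fl/fl.CD4Cre, in which Cre under Cd4 control deletes the floxed allele in T-lineage cells from the thymus on. Ezh2fl/fl mice, labelled wild type, carried the floxed allele without Cre. A Cre-only control, an input ChIP and iTreg ChIP were not analysed here.

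RNA libraries held 21910114 to 28443427 counted reads and ChIP libraries 11124172 to 15103496. Ezh2 itself, counted over the whole gene and not over the floxed part alone, stood at 148 to 169 CPM (read counts scaled to library size) in Th0 Ezh2KO and 295 to 312 CPM in Th0 Ezh2fl/fl libraries. In iTreg libraries it stood at 48.7 to 123 CPM in Ezh2KO and 166 to 251 CPM in Ezh2fl/fl. Cd3e was at 138 CPM or more in every RNA library. The iTreg libraries Ezh2KO.165 and Ezh2fl/fl.177 stood apart from the other iTreg libraries. Tcf7, for example, was at 98.3 and 71.3 CPM in the other iTreg Ezh2KO libraries and 2514 CPM in Ezh2KO.165, and at 157 and 180 CPM in the other iTreg Ezh2fl/fl libraries and 419 CPM in Ezh2fl/fl.177. The spread they add is shared by every RNA test, so calls made without both are given beside the results below.

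Ezh2 is a catalytic subunit of Polycomb repressive complex 2 (PRC2), which places H3K27me3 on chromatin of genes held silent. Developmental transcription factors are textbook PRC2 targets in embryonic stem cells and in many differentiated tissues. Sox proteins bind DNA through an HMG box, Fox proteins through a winged helix, Tbx proteins through a T-box, and Gata and Zic proteins through zinc fingers. Tissue-restricted bHLH factors such as Neurog1 and Twist1 pair with E proteins on E-box DNA, while Hes proteins act downstream of Notch as repressors with Groucho corepressors.

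In Ezh2fl/fl Th0 cells these genes carried dense H3K27me3, and in Ezh2KO Th0 cells the density was lower at most of them. The median density, as read counts scaled to library size and divided by the length of the gene interval (CPM per kb), was 1.17 in Ezh2KO and 3.78 in Ezh2fl/fl cells over the 107 genes that passed the count filter. Over all 20976 intervals with reads the medians were 0.951 in Ezh2KO and 0.913 in Ezh2fl/fl cells. By library, the genes' medians were 1.08 and 1.30 in Ezh2KO, and 3.23 and 4.30 in Ezh2fl/fl. In Ezh2KO cells the genes lay close together, between 0.560 and 2.20 CPM per kb. In Ezh2fl/fl cells they spread from 0.304 to 9.16. Neurod1, Neurog3, Sox1 and Sox2 had no ChIP read in any library, because another annotated gene wholly covers the interval of each.

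**Figure D1:**
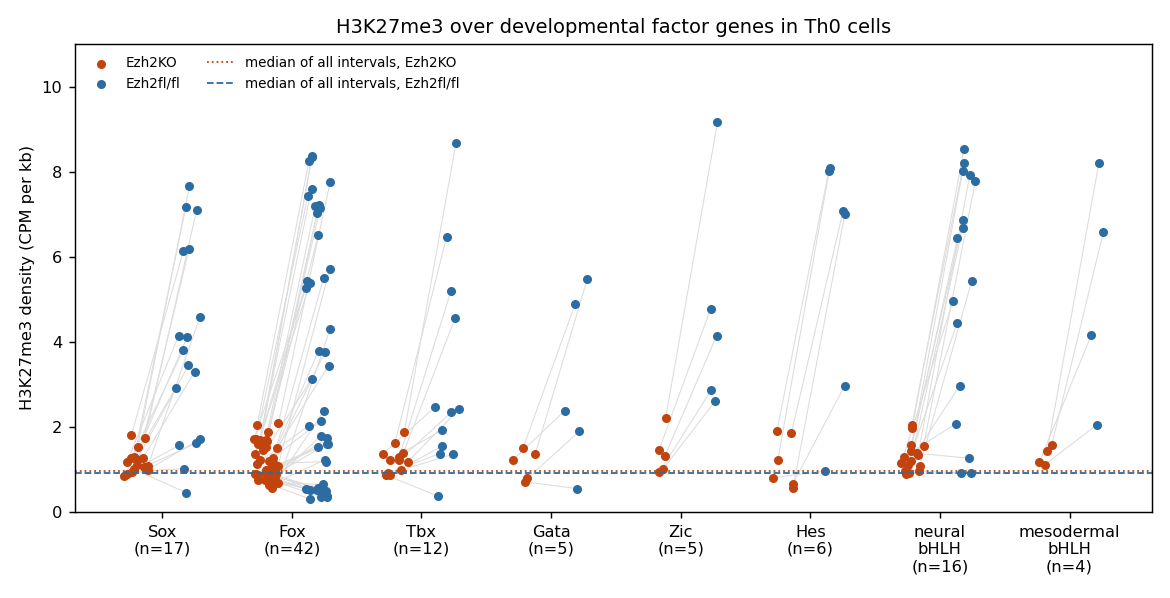
H3K27me3 density (CPM per kb of gene interval) of the 107 genes with ChIP reads, by family; each point is a gene's mean over 2 Ezh2KO (orange) or 2 Ezh2fl/fl (blue) Th0 libraries, grey lines join the same gene, and horizontal lines are the medians of all intervals. The Ezh2KO points sit between 0.560 and 2.20, whereas Ezh2fl/fl points reach 9.16, except for a group of mostly Fox genes that lies below both medians in Ezh2fl/fl cells.

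Density in Ezh2fl/fl cells placed 69 of the 107 genes in the top 10% of all intervals, above 2.22 CPM per kb. Tbx18 at 2.34 CPM per kb lay just inside that limit and Foxi1 at 2.13 just outside it. The Hox genes, the other classical set of PRC2 targets, had 27 of 31 in the top 10%, with median densities of 1.46 in Ezh2KO and 7.24 in Ezh2fl/fl cells. The rank rests on dividing by length: by reads per interval alone, 10 of the 107 genes were in the top 10%, since most of these genes are short (median interval 4795 bases, against 17002 for all intervals).

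With edgeR's quasi-likelihood test on all 20376 intervals that passed the filter, H3K27me3 was lower in Ezh2KO cells at 82 of the 107 genes and higher at 11, at a Benjamini-Hochberg adjusted p under 0.05. Of all intervals, 20.6% were called lower and 32.2% higher, or 52.9% in either direction. The median log2 change was -1.68 for these genes and 0.21 for all intervals. Scaling by the trimmed mean of M values (TMM) instead of by total reads moved the median of all intervals to -0.02 and gave 87 lower and 9 higher of the 107 genes, with 27.97% of all intervals lower and 24.32% higher. Both Ezh2KO densities lay under both Ezh2fl/fl densities at 87 of the genes, and at 31.1% of all intervals. The calls rest on both Ezh2KO libraries: without either of them no interval passed the adjusted threshold by edgeR, though the genes' median log2 change was then -1.56 or -1.88, and 73 or 75 of them were lower at an unadjusted p under 0.05.

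**Figure D2:**
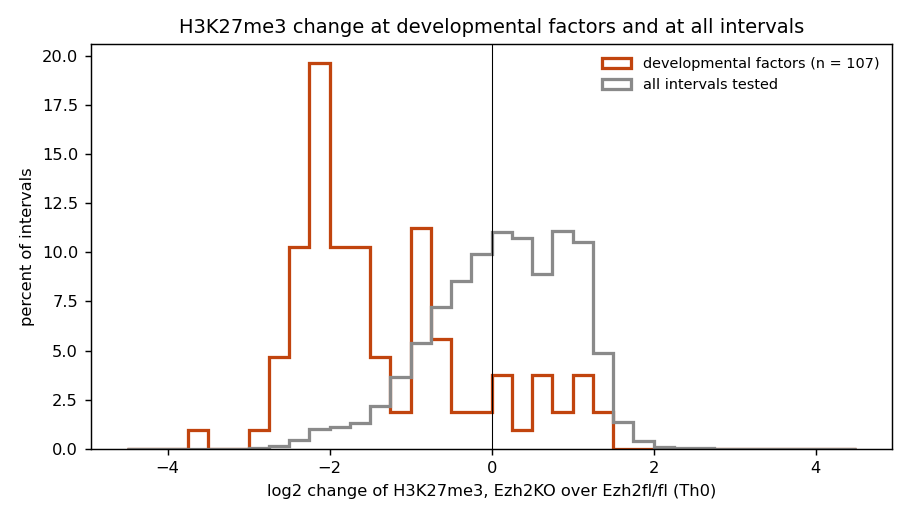
Distribution of the log2 change of H3K27me3 in Ezh2KO over Ezh2fl/fl Th0 cells, as percent of intervals per bin, for the 107 developmental factor genes (orange) and all 20376 intervals tested (grey). The genes' median was -1.68, and a smaller group of 17 genes lay above 0.

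The size of the fall varied among the genes. The log2 change was -2 or lower at 39 genes, between -2 and -1 at 29, between -1 and 0 at 22 and above 0 at 17. By family, median densities were 1.01 in Ezh2KO against 7.04 in Ezh2fl/fl cells for Hes genes, 1.24 against 5.93 for neural bHLH genes and 1.30 against 5.37 for Hand and Twist genes. They were 1.31 against 4.14 for Zic, 1.16 against 3.80 for Sox, 1.09 against 2.75 for Fox, 1.23 against 2.38 for Tbx and 1.22 against 2.38 for Gata genes. The families thus differed mainly in their Ezh2fl/fl density, and all had medians near 1 CPM per kb in Ezh2KO cells. They also differed in median interval length. It was 3508 bases for Hes, 2669 for neural bHLH and 3824.5 for Hand and Twist genes. It was 4616 for Fox, 21967 for Tbx and 18812 for Gata genes. Density is an average over the interval, so family and length cannot be told apart here. All 5 Zic and all 4 Hand and Twist genes were called lower, as were 5 of 6 Hes, 13 of 16 neural bHLH, 15 of 17 Sox, 9 of 12 Tbx, 4 of 5 Gata and 27 of 42 Fox genes.

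Among genes of the nervous system, Zic2, a factor of forebrain patterning, had the highest Ezh2fl/fl density of all the genes. Its densities were 1.44 and 2.97 CPM per kb in the Ezh2KO libraries, against 6.84 and 11.5 in the Ezh2fl/fl libraries (log2 change -2.07, SE 0.40, adjusted p = 0.00582). Olig2, which specifies oligodendrocytes and motor neurons, had 1.44 and 2.53 in Ezh2KO and 6.44 and 10.6 in Ezh2fl/fl libraries, and Neurog1, a proneural factor of sensory neurons, had 1.24 and 1.62 in Ezh2KO and 6.34 and 9.70 in Ezh2fl/fl libraries. At these loci the higher Ezh2KO library stayed below the lower Ezh2fl/fl library. Neurod2 (mean 2.04 in Ezh2KO, 8.20 in Ezh2fl/fl), the forebrain factor Foxb2 (1.62, 8.37), Foxd4 (1.70, 8.35) and the thyroid factor Foxe1 (2.04, 8.25) were also among the 10 genes of highest density. Olig1, which acts in oligodendrocytes, fell by 2.59 on the log2 scale.

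Among genes of mesoderm and endoderm, Tbx2, a repressor active in heart and limb, had 1.47 and 2.27 CPM per kb in Ezh2KO libraries and 7.62 and 9.74 in Ezh2fl/fl libraries. Hand1, a heart and placenta factor, had 0.982 and 1.88 in Ezh2KO and 7.06 and 9.35 in Ezh2fl/fl libraries (log2 change -2.54, SE 0.32). Neither pair overlapped. The endoderm factors Sox17, Foxa1 and Foxa2 fell by 2.05, 2.32 and 1.76 on the log2 scale, the neural crest factor Foxd3 by 2.13, the cartilage factor Sox9 by 1.85, and the heart factors Hand2, Gata4, Tbx5 and Gata6 by 2.08, 1.69, 1.05 and 0.96. Tbx5 and Gata6 had lower Ezh2fl/fl densities: Tbx5 stood at 1.17 in Ezh2KO and 2.43 in Ezh2fl/fl cells, and Gata6 at 1.22 in Ezh2KO and 2.38 in Ezh2fl/fl cells. Gata2, a factor of blood stem cells and mast cells, fell by 2.00 on the log2 scale.

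The Hes genes gave the largest single change. Hes5, a Notch target, had 0.434 and 0.685 CPM per kb in Ezh2KO libraries and 4.28 and 9.71 in Ezh2fl/fl libraries (log2 change -3.60, SE 0.47, adjusted p = 0.000424). Hes1, the Notch target that T-cell progenitors use in the thymus, had 1.03 and 1.39 in Ezh2KO and 6.61 and 9.54 in Ezh2fl/fl libraries (log2 change -2.75, SE 0.29, adjusted p = 9.95e-05). The groups did not overlap at either gene, although the Ezh2fl/fl libraries of Hes5 differed by more than those of Hes1. Ascl5 and Foxe3, with changes of -2.77 and -2.68, completed the 6 largest falls together with Olig1 and Hand1. The intervals of Ascl5 and Foxe3 are short, at 567 and 977 bases, and their SEs were 0.44 and 0.50.

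The genes called higher in H3K27me3 in Ezh2KO cells, where 32.2% of all intervals were called higher, were of another kind. Counts were scaled to total reads without an input, so a higher call means a larger share of reads. Whether the mark itself rose was not tested. These genes were Foxj3, Foxk1, Foxk2, Foxm1, Foxn2, Foxn3, Foxo3, Foxp1, Foxp4, Sox15 and Tbx6, and 10 of these 11 passed the RNA filter. Foxp4, a lung and T-cell factor, had 0.682 and 0.829 CPM per kb in Ezh2KO and 0.250 and 0.358 in Ezh2fl/fl libraries (log2 change 1.32, SE 0.24, adjusted p = 0.0015). Foxm1, which drives genes of the G2 and M phases, had 0.730 and 0.907 in Ezh2KO and 0.280 and 0.410 in Ezh2fl/fl libraries (log2 change 1.25, SE 0.29). The log2 change was 1.24 for Foxk2, 1.23 for Tbx6, 1.14 for Foxk1 and 0.79 for Foxo3, a stress-responsive factor of quiescent cells. The 11 genes' mean Ezh2KO densities lay between 0.756 and 0.923 CPM per kb, under the 0.951 median of all intervals in that genotype, except for Sox15 at 0.998. Density reads too low for an interval that overlaps another, since reads in the shared part are not counted. The remaining 14 genes were called in neither direction: Ascl3, Ascl4, Foxh1, Foxj2, Foxo4, Foxp2, Foxr1, Foxs1, Gata1, Hes6, Neurod6, Sox5, Tbx19 and Tbx22.

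Several of these genes are neighbours, with 8 pairs of intervals within 100 kb, so their densities are not independent. Zic5 and Zic2 lie 9.76 kb apart on chromosome 14, Foxc2 and Foxl1 9.05 kb apart and Foxf1 and Foxc2 28026 bases apart on chromosome 8, Foxd2 and Foxe3 16.2 kb apart on chromosome 4, and Olig2 and Olig1 41.1 kb apart on chromosome 16. In each of these 5 pairs both genes were called lower. Zic1, a cerebellar factor, and Zic4 overlap by 3398 bases, and Zic1 had mean densities of 0.927 in Ezh2KO and 2.86 CPM per kb in Ezh2fl/fl cells; Tbx2 and Tbx4 lie 44.5 kb apart and Foxq1 and Foxf2 64.8 kb apart, again with both lower.

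Most of these genes had no or few RNA reads. Of the 111 genes, 35 had 0 reads in all 12 RNA libraries, 29 had 1 to 9 reads in all and 47 had 10 or more; 24 passed the filter for testing. That is 21.6% of the genes, against 54.9% of all genes in the tables. Of the 32 genes with 0 RNA reads and ChIP reads, 29 were called lower in H3K27me3, and their median density was 1.43 in Ezh2KO and 5.55 in Ezh2fl/fl cells. The 83 genes under the RNA filter had median densities of 1.26 in Ezh2KO and 4.57 in Ezh2fl/fl cells. For the 24 that passed it, they were 0.878 in Ezh2KO and 0.607 in Ezh2fl/fl cells. The median interval was 4175 bases for the genes under the filter and 15870 bases for those that passed. Density is an average over the interval, so RNA level and length cannot be told apart in this comparison. Of the 82 genes that had lost H3K27me3, 73 did not pass the RNA filter in either genotype's libraries. Of the 9 that did, 4 were called higher in Th0 RNA. Among those 4, Twist1, Atoh8 and Zic5 passed only through Ezh2KO libraries, where they were high. The 4 of 9 is therefore partly set by the filter. Zic2 lay at the low end in RNA and lost most of its mark. It had 8, 4 and 1 RNA reads in Th0 Ezh2KO libraries and 1, 0 and 0 in Th0 Ezh2fl/fl libraries, which overlap. Gata2, Sox17, Foxa1, Foxa2, Foxd3, Hand2, Gata4, Gata6 and Olig2 had between 0 and 3 reads in every RNA library. Within these bulk cultures, fewer cells that express a gene and less RNA per cell cannot be told apart.

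**Figure D3:**
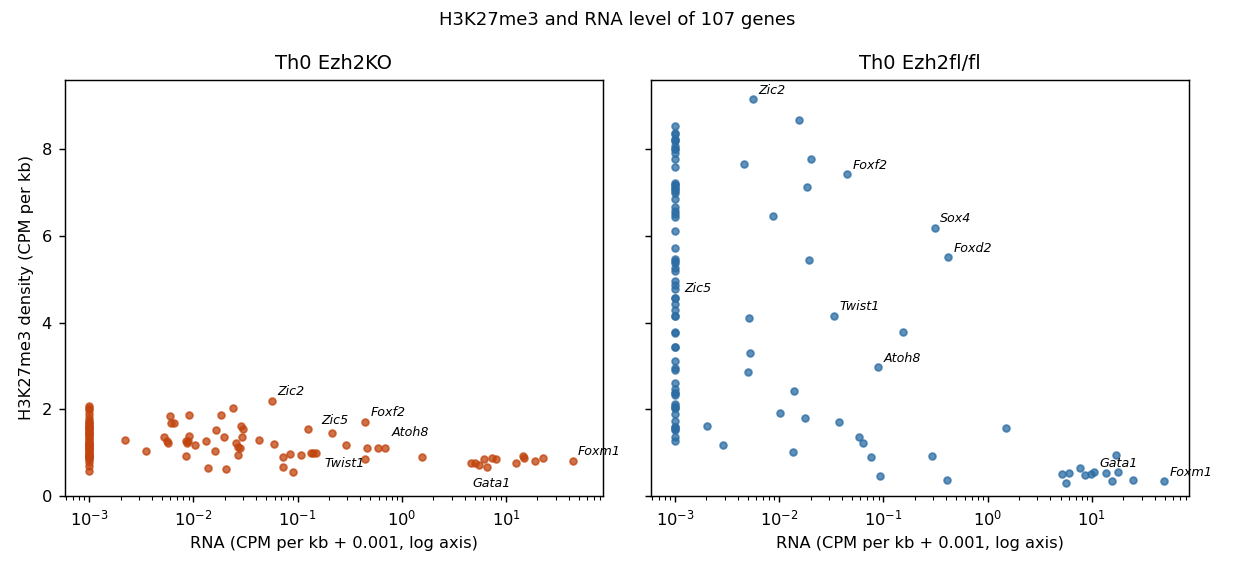
H3K27me3 density (CPM per kb) against RNA level (CPM per kb of gene model plus 0.001, log axis) of the 107 genes in Th0 Ezh2KO cells (left) and Th0 Ezh2fl/fl cells (right); points are group means, and points at the left edge have 0 reads. In Ezh2fl/fl cells the dense genes are at or near 0 in RNA, with Foxd2 at 0.418 and Sox4 at 0.308 CPM per kb the highest RNA among genes above 5 CPM per kb of H3K27me3; in Ezh2KO cells no point lies above 2.20.

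The expressed genes were mainly Fox factors with roles in many cell types. Averaged over all RNA libraries, the 10 of highest CPM were Foxp1, which maintains naive T-cell quiescence, Foxm1, Foxk1, Foxk2, Foxn2, Foxj3, Foxp4, Foxj2, Foxn3 and Foxo4. Foxp1 averaged 152 ± 5.78 CPM in Th0 Ezh2KO and 204 ± 8.12 CPM in Th0 Ezh2fl/fl cells (SD, n = 3 each), and its groups did not overlap, yet the change did not pass the test (log2 change -0.45, SE 0.19, edgeR adjusted p = 0.189). Foxm1 averaged 189 ± 3.12 CPM in Th0 Ezh2KO and 216 ± 5.64 CPM in Th0 Ezh2fl/fl cells (log2 change -0.23, SE 0.31). Summed, all 111 genes reached 882 to 896 CPM in Th0 Ezh2KO and 1012 to 1042 CPM in Th0 Ezh2fl/fl libraries, and 1042 to 1187 CPM in iTreg Ezh2KO and 1408 to 1479 CPM in iTreg Ezh2fl/fl libraries.

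In Th0 RNA, 4 of the 24 genes tested were higher in Ezh2KO cells and 0 were lower. Of all 12845 genes tested, 8.74% were called higher and 3.22% lower. At an unadjusted p under 0.05 the count was 9 in either direction. The median log2 change of the 24 genes was -0.02. The 4 genes were Twist1, Foxf2, Atoh8 and Zic5, all of which were also lower in H3K27me3, and all remained at low RNA levels. Twist1, Atoh8 and Zic5 passed the RNA filter only through Ezh2KO libraries, where they were high, so their calls are descriptions. Fitting the 6 Th0 libraries alone, or leaving out both iTreg libraries that stand apart, called 52.1% or 51.6% of all genes. Of 29 genes tested without both, 7 were higher (Atoh8, Foxf2, Hes1, Sox5, Tbx15, Twist1 and Zic5) and 9 lower (Ascl4, Foxk1, Foxk2, Foxm1, Foxn2, Foxo4, Foxp1, Foxp4 and Gata1). The 6 Th0 libraries alone gave 3 higher (Atoh8, Foxf2 and Zic5) and 8 lower (Foxk1, Foxk2, Foxm1, Foxn2, Foxo4, Foxp1, Foxp4 and Gata1).

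Because these 4 genes rose together in Th0 RNA, the 250 bases before their RefSeq start sites (GRCm38) are printed 5′ to 3′ on the gene's strand, with each CG dinucleotide in capitals, since CG-rich promoters are a known feature of PRC2 targets.
Twist1 (chr12:33957421-33957670, plus strand): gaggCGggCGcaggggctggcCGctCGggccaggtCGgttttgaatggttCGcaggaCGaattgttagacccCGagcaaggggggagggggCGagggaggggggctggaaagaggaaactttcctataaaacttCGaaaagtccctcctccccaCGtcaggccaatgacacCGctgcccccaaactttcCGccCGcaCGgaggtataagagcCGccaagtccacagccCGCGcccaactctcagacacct
Foxf2 (chr13:31625566-31625815, plus strand): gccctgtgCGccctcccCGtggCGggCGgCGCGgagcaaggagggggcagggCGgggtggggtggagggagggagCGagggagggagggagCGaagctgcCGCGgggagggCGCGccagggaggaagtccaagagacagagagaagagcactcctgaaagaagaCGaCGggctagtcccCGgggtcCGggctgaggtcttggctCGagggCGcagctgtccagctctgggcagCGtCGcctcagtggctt
Atoh8 (chr6:72235578-72235827, minus strand): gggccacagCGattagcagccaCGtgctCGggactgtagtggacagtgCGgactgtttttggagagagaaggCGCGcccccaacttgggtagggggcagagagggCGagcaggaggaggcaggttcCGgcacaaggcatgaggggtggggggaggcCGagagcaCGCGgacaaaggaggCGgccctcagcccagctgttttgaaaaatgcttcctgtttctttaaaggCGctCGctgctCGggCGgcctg
Zic5 (chr14:122465659-122465908, minus strand): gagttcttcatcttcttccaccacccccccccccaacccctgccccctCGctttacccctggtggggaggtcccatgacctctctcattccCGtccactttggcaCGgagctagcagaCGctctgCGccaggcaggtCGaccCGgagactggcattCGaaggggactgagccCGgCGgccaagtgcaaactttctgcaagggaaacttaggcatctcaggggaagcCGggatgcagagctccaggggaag
They hold 18, 21, 16 and 11 CG dinucleotides, in the order printed. Over all 32851 promoters in the table the median for the same window was 6, and 92.1% held at least 1. A count as high as that of Foxf2 was reached by 16.4% of all promoters, and one as high as that of Zic5 by 35.6%.

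Atoh8, a bHLH factor of neural and muscle development, gave the steadiest change. It had 40, 44 and 47 reads in Th0 Ezh2KO libraries, against 6, 5 and 5 reads in Th0 Ezh2fl/fl libraries, or 1.61 ± 0.0575 CPM in Ezh2KO and 0.207 ± 0.0324 CPM in Ezh2fl/fl cells (SD, n = 3 each). The groups were far apart, and the log2 change was 2.90 (SE 0.52, edgeR quasi-likelihood adjusted p = 0.0059). The call held in all 20 alternative fits run for it. Its H3K27me3 density was 1.01 and 1.19 CPM per kb in Ezh2KO libraries and 2.69 and 3.25 in Ezh2fl/fl libraries.

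Foxf2, a factor of gut and palate mesenchyme, had 51, 18 and 15 reads in Th0 Ezh2KO libraries, against 4, 2 and 2 reads in Th0 Ezh2fl/fl libraries. Library Ezh2KO.165 was the highest, and all Ezh2KO libraries lay above all Ezh2fl/fl libraries (log2 change 3.25, SE 0.80, adjusted p = 0.0255). The adjusted p reached 0.101 when a single Th0 library was left out, with Th0 Ezh2KO.165 and each of the 3 Th0 Ezh2fl/fl libraries ending the call. Its density was 1.30 and 2.14 CPM per kb in Ezh2KO and 5.60 and 9.24 in Ezh2fl/fl libraries.

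Twist1, a mesoderm factor that effector T cells also use, had 20, 9 and 9 reads in Th0 Ezh2KO libraries, against 3, 1 and 0 reads in Th0 Ezh2fl/fl libraries (log2 change 3.04, SE 0.81, adjusted p = 0.0364). In iTreg cells it had 10, 20 and 9 reads in Ezh2KO libraries, against 1, 0 and 0 reads in Ezh2fl/fl libraries, a ratio of 42.5 with a 95% counting interval of 7.18 to 1719 (adjusted p = 0.00677). The genotypes did not overlap in either culture. The Th0 call was lost in 9 of 14 fits that left out libraries, among them those without any 1 of the Th0 Ezh2KO libraries, Th0 Ezh2fl/fl.176 or Ezh2fl/fl.177, iTreg Ezh2KO.150, or iTreg Ezh2fl/fl.154 or Ezh2fl/fl.155, with adjusted p up to 0.142. The iTreg call held in all 14. Intervals and limits from counts cover counting error only, since PCR reads without molecular identifiers are not independent molecules.

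Zic5, which lies beside Zic2 and acts in neural tube patterning, had 17, 12 and 12 reads in Th0 Ezh2KO libraries, against 0 reads in each Th0 Ezh2fl/fl library. That made it at least 13.1-fold higher in Ezh2KO cells, with 3 counts over the group as the floor (adjusted p = 0.0232). Zic5 passed the RNA filter only through the Th0 Ezh2KO libraries, so its adjusted p is given as a description. Leaving out any 1 of the 6 Th0 libraries ended the call, with adjusted p up to 0.0785. In iTreg cells it had 5, 2 and 0 reads in Ezh2KO and 0 in each Ezh2fl/fl library, which did not pass the test.

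**Figure D4:**
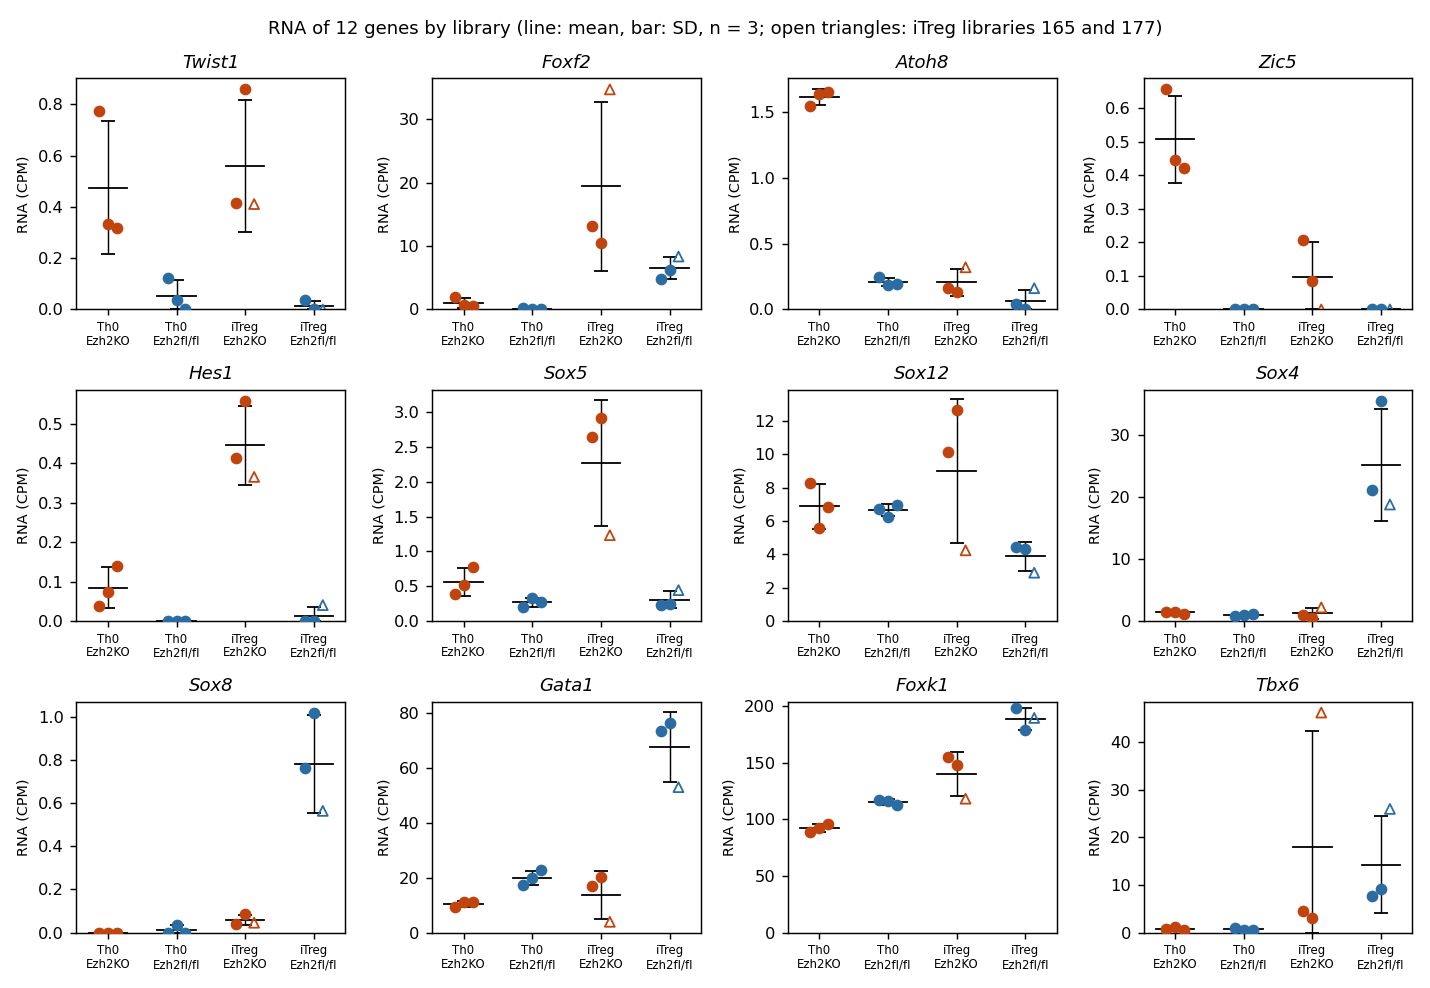
RNA level (CPM) of 12 genes in each library, with the group mean (line) and SD (bar, cut at 0); orange is Ezh2KO, blue is Ezh2fl/fl, and open triangles are iTreg libraries Ezh2KO.165 and Ezh2fl/fl.177. Atoh8 is high in the 3 Th0 Ezh2KO libraries alone, Sox4 and Sox8 are high in the 3 iTreg Ezh2fl/fl libraries alone, and Tbx6 and Foxf2 are highest in iTreg library Ezh2KO.165.

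In iTreg RNA, 3 of the 24 genes were higher in Ezh2KO cells and 4 were lower, where 9.45% of all genes were called higher and 7.26% lower. Twist1, Sox5 and Sox12 were higher, and Sox4, Sox8, Gata1 and Foxk1 were lower. In iTreg cells the reads of Twist1, Sox5 and Sox8 lay mostly in the group where they were high, so these 3 calls are descriptions. The median log2 change was 0.00, and 12 genes were at an unadjusted p under 0.05. Without both iTreg libraries that stand apart, 9 of 29 genes tested were higher and 12 lower, where 57.1% of all genes were called. The added genes were Atoh8, Foxf2, Hes1, Sox7, Tbx15 and Zic5 on the higher side, and Ascl4, Foxj2, Foxm1, Foxn3, Foxo4, Foxp1, Foxp4 and Tbx6 on the lower side. The 6 iTreg libraries fitted alone called 4.34% of all genes and kept Sox5, Twist1, Sox4 and Sox8.

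Sox4, a SoxC factor induced by TGF-beta that acts in lymphocyte progenitors and T helper cells, gave the clearest change. It had 24, 12 and 48 reads in iTreg Ezh2KO libraries, against 552, 868 and 465 reads in iTreg Ezh2fl/fl libraries, or 1.23 ± 0.864 CPM in Ezh2KO and 25.1 ± 9.04 CPM in Ezh2fl/fl cells (SD, n = 3 each). Every Ezh2fl/fl library was above every Ezh2KO library (log2 change -4.34, SE 0.47, edgeR adjusted p = 0.000272). In Th0 cells it had 39, 39 and 33 reads in Ezh2KO and 19, 24 and 28 reads in Ezh2fl/fl libraries, which was no call (log2 change 0.55, adjusted p = 0.576). The interaction of genotype and culture was -4.90 (SE 0.64, adjusted p = 0.00336), and Sox4 was the only 1 of the 24 genes called in it with all libraries. Of all genes, 1.63% were called higher and 2.86% lower, or 4.49% in either direction, and 3 of the 24 were at an unadjusted p under 0.05. The next interaction terms by p were 1.86 for Sox5 (adjusted p = 0.155), 1.20 for Sox12, -1.34 for Gata1 and -0.83 for Foxd2, of which none passed by edgeR with all libraries. Without both iTreg libraries that stand apart, 3 of 29 genes were higher in the interaction (Foxk2, Sox12 and Sox5) and 8 lower (Foxj2, Foxm1, Foxn3, Foxo4, Foxp4, Gata1, Hes6 and Sox4), where 41.2% of all genes were called. Sox4 was 4.71 log2 units higher in iTreg than in Th0 Ezh2fl/fl cells, and differed by -0.19 (adjusted p = 0.752) between iTreg and Th0 Ezh2KO cells. In Th0 cells its H3K27me3 density was 0.898 and 1.33 CPM per kb in Ezh2KO and 4.91 and 7.46 in Ezh2fl/fl libraries, so the mark was lower and RNA was not called at the same gene; H3K27me3 of iTreg cells was not analysed here.

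Sox8, a SoxE factor of neural crest and testis, had 1, 2 and 1 reads in iTreg Ezh2KO libraries, against 20, 25 and 14 reads in iTreg Ezh2fl/fl libraries (log2 change -3.65, SE 0.57, adjusted p = 0.00355). In Th0 cells it had 0 reads in each Ezh2KO library and 0, 1 and 0 in Ezh2fl/fl libraries. Its level was thus seen in 1 of the 4 groups, and it passed the RNA filter only through that group. Its adjusted p is therefore given as a description. Like Sox4 it had lost H3K27me3 in Th0 Ezh2KO cells (1.27 in Ezh2KO, 4.10 CPM per kb in Ezh2fl/fl).

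Gata1, the erythroid, megakaryocyte and mast cell factor, had 413, 468 and 86 reads in iTreg Ezh2KO libraries, against 1926, 1872 and 1314 reads in iTreg Ezh2fl/fl libraries. All Ezh2KO libraries lay below all Ezh2fl/fl libraries, with library Ezh2KO.165 the lowest (log2 change -2.30, SE 0.46, adjusted p = 0.00738; adjusted p = 0.113 with the 6 iTreg libraries alone). In Th0 cells it had 240, 299 and 317 reads in Ezh2KO libraries and 429, 532 and 594 reads in Ezh2fl/fl libraries, again without overlap but not called (adjusted p = 0.24). Gata1 carried little H3K27me3 in Th0 cells of either genotype, with 0.535 and 0.880 CPM per kb in Ezh2KO and 0.339 and 0.761 in Ezh2fl/fl libraries. The summed level of 13 mast, basophil, erythroid and megakaryocyte markers was 5.66 to 33.8 CPM in iTreg Ezh2KO and 9.11 to 23.4 CPM in iTreg Ezh2fl/fl libraries. Kit made up most of that sum in every iTreg library. It had 109, 93 and 565 reads in iTreg Ezh2KO and 392, 531 and 132 reads in iTreg Ezh2fl/fl libraries. Kit was called higher in iTreg than in Th0 cells (log2 change 4.07 in Ezh2KO, 5.35 in Ezh2fl/fl). Alas2 and Itga2b had reads in all 12 libraries. Fcer1a and the globins Hba-a1, Hba-a2 and Hbb-b1 were at 0 reads in all 12 libraries. The part of such cells in the Gata1 change was not tested.

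The windows before Sox4 and Gata1, both lower in iTreg Ezh2KO RNA but unlike each other in H3K27me3, are printed in the same way to show how they differ in CG content.
Sox4 (chr13:28953700-28953949, minus strand): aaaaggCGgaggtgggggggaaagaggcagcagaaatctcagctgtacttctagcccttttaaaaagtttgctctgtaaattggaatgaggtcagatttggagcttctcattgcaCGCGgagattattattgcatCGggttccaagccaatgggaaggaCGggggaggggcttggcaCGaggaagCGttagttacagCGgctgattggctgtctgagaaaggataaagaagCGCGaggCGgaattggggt
Gata1 (chrX:7967911-7968160, minus strand): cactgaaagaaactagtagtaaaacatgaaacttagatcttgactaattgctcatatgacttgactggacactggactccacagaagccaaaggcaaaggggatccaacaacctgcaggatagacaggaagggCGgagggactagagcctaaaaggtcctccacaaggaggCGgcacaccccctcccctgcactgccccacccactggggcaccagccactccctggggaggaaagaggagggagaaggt
Sox4 holds 11 CG dinucleotides there, as many as Zic5, whereas Gata1 holds 2, a count reached by 81.2% of all promoters. Sox4 had a dense mark in Ezh2fl/fl Th0 cells, and Gata1 did not. These are chosen genes, and whether CG content goes with the mark among the genes was not tested.

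Sox5, a SoxD factor of cartilage and neurons, had 64, 68 and 27 reads in iTreg Ezh2KO libraries, against 6, 6 and 11 reads in iTreg Ezh2fl/fl libraries (log2 change 2.88, SE 0.43, adjusted p = 0.00151). All Ezh2KO libraries were higher, Ezh2KO.165 least. In iTreg cells only Ezh2KO, where Sox5 was high, had the minimum count of 10 reads in every library. Its adjusted p is therefore given as a description. Its interval of 953553 bases had a flat density, 0.906 and 0.975 CPM per kb in Ezh2KO and 0.983 and 1.05 in Ezh2fl/fl libraries, which as an average over so long a gene says little of any single site. Sox12, a SoxC relative of Sox4, had 245, 296 and 93 reads in iTreg Ezh2KO and 117, 106 and 72 reads in iTreg Ezh2fl/fl libraries, which overlap (log2 change 1.22, adjusted p = 0.0408). This call was lost in 13 of 20 alternative fits, including those without any single library other than iTreg Ezh2KO.165. Foxk1, a broadly expressed repressor of autophagy genes, averaged 140 ± 19.4 CPM in iTreg Ezh2KO and 189 ± 9.65 CPM in iTreg Ezh2fl/fl cells (SD, n = 3 each), a log2 change of -0.42 (SE 0.11, adjusted p = 0.0262), lost in 4 of 20 alternative fits. Without iTreg Ezh2fl/fl library 154 or 155 the Foxk1 call ended.

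Some genes under the RNA filter had reads mostly in 1 group. Hes1 had 10, 13 and 8 reads in iTreg Ezh2KO libraries, against 0, 0 and 1 reads in iTreg Ezh2fl/fl libraries, a ratio of 33.7 with a 95% counting interval of 5.62 to 1375. The groups did not overlap, and Hes1 is named because its reads lay in 1 group, so this is a description. Sox7, an endothelial SoxF factor, had 21, 10 and 3 reads in iTreg Ezh2KO and 0, 2 and 2 reads in iTreg Ezh2fl/fl libraries, a ratio of 9.25 (3.30 to 35.9). Sox7 is named by the same rule, so this too is a description, and its lowest Ezh2KO library lay close to the Ezh2fl/fl libraries. Hes1 and Sox7 had both lost H3K27me3 in Th0 Ezh2KO cells. In Th0 RNA, Hes1 had 1, 2 and 4 reads in Ezh2KO and 0 in each Ezh2fl/fl library. Loss of the mark did not come with a called RNA change at Foxd2, a kidney and cranial mesoderm factor, which had 48, 30 and 46 reads in Th0 Ezh2KO and 20, 47 and 19 in Th0 Ezh2fl/fl libraries while its density was 1.11 in Ezh2KO and 5.50 CPM per kb in Ezh2fl/fl cells.

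Between cultures, 9 of the 24 genes were higher in iTreg than in Th0 Ezh2fl/fl cells and 0 were lower, where 19.9% of all genes were called higher and 11.5% lower; 15 were at an unadjusted p under 0.05. They were Foxf2, Sox8, Sox4, Tbx6, Foxn3, Gata1, Foxj2, Foxp1 and Foxk1. In Ezh2KO cells 7 were higher in iTreg than in Th0 cells and 1 was lower, where 16.6% and 8.75% of all genes were. Those higher were Tbx6, Foxf2, Sox5, Foxn3, Foxj2, Foxp1 and Foxk1, and Atoh8 was lower (log2 change -2.99, SE 0.53, adjusted p = 0.00515). Sox8 passed the RNA filter only through iTreg Ezh2fl/fl libraries and Atoh8 only through Th0 Ezh2KO libraries, where each was high. Their culture calls are therefore descriptions. Sox5 was highest in iTreg Ezh2KO libraries, and its call is given as a description too. Several of these calls were lost in alternative fits. In Ezh2KO cells Foxp1 was lost in 12 of 19, Foxj2 in 10 of 19, Tbx6 in 4 of 18 and Foxn3 in 2 of 19, with log2 changes of 0.30 to 0.73, 0.42 to 1.49, 2.23 to 5.03 and 1.00 to 1.72 in that order. In Ezh2fl/fl cells Foxj2 was lost in 10 of 19, Foxp1 in 5 of 19, Gata1 in 4 of 19 and Tbx6 in 2 of 18. Without both iTreg libraries that stand apart, 13 of 29 genes were higher and 2 lower in Ezh2KO cells (57.6% of all genes called), and 14 higher and 4 lower in Ezh2fl/fl cells (66.8% called). Foxf2 had 317, 243 and 760 reads in iTreg Ezh2KO against 51, 18 and 15 in Th0 Ezh2KO libraries, and 128, 152 and 207 reads in iTreg Ezh2fl/fl against 4, 2 and 2 in Th0 Ezh2fl/fl libraries. The cultures did not overlap in either genotype, and the log2 changes were 4.17 in Ezh2KO and 5.84 in Ezh2fl/fl cells. Tbx6, a factor of presomitic mesoderm, had 112, 73 and 1013 reads in iTreg Ezh2KO and 201, 222 and 645 reads in iTreg Ezh2fl/fl libraries, against 13 to 30 reads in all Th0 libraries. Its highest values were those of the libraries that stand apart, and those were also the highest iTreg values in each genotype for Foxj2, Foxn3 and Foxo4. The iTreg and Th0 cultures differ by cytokines, IL-2 dose and, by the titles, day, which cannot be told apart. Markers of other cells moved with culture too: 9 of 9 B-cell markers were lower in iTreg than in Th0 Ezh2KO cells and 6 of 9 in Ezh2fl/fl cells, while Cd8a and Klrd1 were higher in both genotypes, and Itgam in Ezh2fl/fl cells. Itgam was the only 1 of 7 myeloid markers that passed the RNA filter. Csf1r, Cd14, S100a8 and S100a9 had 0 reads in the iTreg Ezh2fl/fl libraries. The myeloid sum was 3.16, 3.06 and 24.9 CPM in those libraries, highest in the library that stands apart. The part of these other cells in the culture changes was not tested.

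Partner and pathway genes of these families were read from a list of 39, of which 30 passed the RNA filter. In Th0 cells 5 were higher in Ezh2KO (Id1, Id2, Nrarp, Rbpj and Tcf4) and 0 were lower, where 8.74% of all genes were called higher and 3.22% lower. Id proteins hold E proteins away from DNA, and their summed level was 660 to 854 CPM in Th0 Ezh2KO and 121 to 134 CPM in Th0 Ezh2fl/fl libraries, mostly from Id2. The 3 E proteins, partners of Twist1 and Atoh8, summed to 343 to 363 CPM in Th0 Ezh2KO and 342 to 349 CPM in Th0 Ezh2fl/fl libraries. Rbpj, the DNA-binding factor of Notch signalling upstream of Hes genes, was at 590, 360 and 365 CPM in Th0 Ezh2KO libraries and 162, 169 and 191 CPM in Th0 Ezh2fl/fl libraries (log2 change 1.30, adjusted p = 0.00447). In iTreg cells 5 were higher in Ezh2KO (Dtx1, Id2, Maml2, Notch1 and Rbpj) and 5 lower (Lyl1, Notch3, Tcf4, Tle1 and Zfpm1), where 9.45% of all genes were called higher and 7.26% lower. The Notch genes Hey1, Hey2 and Heyl, relatives of Hes, had 0 to 3 RNA reads per library and lower H3K27me3 in Ezh2KO Th0 cells.

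Markers of other cells moved with genotype as well. In Th0 RNA, 9 of 9 B-cell markers were higher in Ezh2KO cells, with a summed level of 305 to 685 CPM in Ezh2KO and 100 to 159 CPM in Ezh2fl/fl libraries, and the summed CD4 T-cell markers were 1425 to 1708 CPM in Ezh2KO and 2423 to 2512 CPM in Ezh2fl/fl libraries. The mast, basophil, erythroid and megakaryocyte sum was 2.56 to 7.34 CPM in Th0 Ezh2KO and 1.41 to 1.64 CPM in Th0 Ezh2fl/fl libraries, highest, like the B-cell sum, in library Ezh2KO.165, where Foxf2, Twist1 and Zic5 were also highest. In iTreg RNA the sum of 5 CD8 T and NK cell markers was 137 to 190 CPM in Ezh2KO and 37.2 to 47.6 CPM in Ezh2fl/fl libraries. The part of these cells in the changes of the Sox, Fox, Zic and bHLH genes was not tested. Of the relatives left out by the rule, Eomes, a T-box factor of cytotoxic T cells, was also higher in Ezh2KO cells, with 617 ± 95.0 CPM in Th0 Ezh2KO and 28.7 ± 4.45 CPM in Th0 Ezh2fl/fl cells (SD, n = 3 each) and an H3K27me3 density of 0.947 in Ezh2KO and 4.12 CPM per kb in Ezh2fl/fl cells.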

How the data were processed

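The deposited tables hold raw read counts per gene for 12 RNA libraries and raw read counts per gene interval for 4 H3K27me3 ChIP libraries. Per the submitters' processing notes, Trimmomatic 0.30, TopHat2 2.0.6, Bowtie2 2.1.0 and featureCounts 1.4.2 were used, on mouse build mm10. The featureCounts command in the ChIP file headers sets no option for strand or for reads that overlap several genes, so reads shared by overlapping intervals are not counted. Density was divided by the full interval length and is therefore too low at overlapped intervals, which 13 of the 111 members have. Over the 98 members without overlap the median density was 1.21 in Ezh2KO and 4.16 CPM per kb in Ezh2fl/fl cells. For RNA, strand handling is not given in the sources used here, and reads of overlapping or antisense genes cannot be told apart.

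The members, gene lists and named genes were chosen with earlier results of these data known. RNA counts were filtered with filterByExpr (minimum count 10), scaled by TMM and tested over all 12845 genes with edgeR 4.0.16 in R 4.3.3 (quasi-likelihood, 4 groups in one fit, Benjamini-Hochberg adjusted p under 0.05). ChIP counts were scaled by total reads, because other scalings take most intervals as unchanged, and tested over 20376 intervals. Named genes are all members called between genotypes, the 10 of highest RNA, the extremes of H3K27me3, a list of blood and Polycomb genes, and low genes with reads in 1 group. A gene that this rule names is not reported here. Alternatives were TMM and RLE scaling, other count filters, DESeq2 1.42.0, fits within 1 culture and leaving out libraries. The common dispersion was 0.081 for RNA and 0.0286 for ChIP. Replicates are biological, per the design text. RefSeq promoters (GRCm38) matched 75 of 111 members, 67.6%, so a check of CG content over the members is void.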

Additional observations from a re-analysis of the deposited data

Results flagged for a closer look

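Sox4 stood out because its genotype effect differed between cultures. The effect of Ezh2KO against Ezh2fl/fl in iTreg minus that in Th0 cells was -4.90 on the log2 scale by edgeR's interaction term (SE 0.64, adjusted p = 0.00336). Sox4 was lower in 3 of 3 iTreg Ezh2KO libraries than in any iTreg Ezh2fl/fl library, and it was 1 of 24 members tested. The term was between -5.76 and -4.53 in 19 alternative fits and passed the threshold in each.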

How the results depend on the processing

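Over 51 named changes of single genes, no alternative turned a direction round; 614 alternative values stayed on the same side of the threshold and 126 lost it. Leaving out 1 library at a time gave 1 to 11 calls in Th0 RNA (4 with all libraries), 6 to 18 in iTreg RNA (7), 1 to 5 in the interaction (1), 5 to 15 for iTreg against Th0 in Ezh2fl/fl (9) and 4 to 11 in Ezh2KO (8), 0 to 87 lower (82) and 0 to 13 higher (11) in H3K27me3. The high ends in RNA came without iTreg library Ezh2KO.165 (for the culture in Ezh2KO also without iTreg Ezh2KO.153). The calls in H3K27me3 rest on both Ezh2KO ChIP libraries. Every fit without 1 ChIP library leaves 1 residual degree of freedom, also those without an Ezh2fl/fl library. Without both iTreg libraries Ezh2KO.165 and Ezh2fl/fl.177, 29 members were tested in RNA. The calls were 16 in Th0, 21 in iTreg and 11 in the interaction, where 51.6%, 57.1% and 41.2% of all genes were called. For the culture they were 18 in Ezh2fl/fl and 15 in Ezh2KO, where 66.8% and 57.6% of all genes were called. Without both libraries Ezh2KO.165, chosen after seeing the data, they were 19 in iTreg, 4 in the interaction and 15 for the culture in Ezh2fl/fl. For that fit the share of all genes is not given here, so its counts say nothing particular to the members. The 6 Th0 libraries alone gave 11 calls among 22 members tested (52.1% of all genes called). The 6 iTreg libraries alone gave 4 among 21 (4.34%). Without division by length, 10 members were in the top 10% by H3K27me3. No paired analysis was possible because each pair of groups compared shares at most 1 replicate number. The Th0 and iTreg libraries that share a number (Ezh2KO.165, Ezh2fl/fl.177) were treated as independent in the culture tests. Low reads limit the RNA results: 87 of 111 members did not pass the filter.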
